A study of Homo sapiens with 6 samples.

Results

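The genes described here encode ribosome biogenesis factors, the proteins that make, cut, modify and fold ribosomal RNA and load it with ribosomal proteins. The list named 57 such genes, given by symbol for their function, and the rule uses measured values only to pick a probe set for each gene. Members and gene lists were nevertheless chosen with earlier results of these data known. Counts set beside those of all genes are therefore descriptions of lists that were not blind to these arrays. Of these, 52 were measured among 18404 genes in all, each by the brightest probe set that carries its symbol alone. NOP56 and PPAN lie on probe sets that carry further symbols and were left out, and GNL3, EBNA1BP2 and DDX18 were not analysed here. The samples were 6 cultures of PrEC, an immortalized line of normal human prostate epithelial cells, with RNA from each on 1 array. The reference group, shNT, held 3 samples with the hairpin of that name, and the other group, shPKCi, held 3 samples with a hairpin against PKCλ/ι, the atypical kinase that the gene PRKCI encodes. Both lines grew in the same prostate epithelial medium without a further treatment, and cells were harvested 48 hours after they were plated. The series calls the 3 samples of a line biological replicates. How many hairpins or clones stand behind a line was not given in the sources used here, so that a difference between PKCλ/ι levels and a difference between these lines cannot be told apart.

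Ribosomes are built mainly in the nucleolus. RNA polymerase I copies the ribosomal DNA into a long precursor, and a large particle called the small subunit processome forms on it and guides its early cuts. Small nucleolar ribonucleoproteins of the box C/D and box H/ACA classes methylate the precursor's riboses and turn chosen uridines into pseudouridine. Separate sets of assembly factors then carry the small and the large subunit through the nucleus to the cytoplasm. In many cell types the genes for these factors are known as targets of the transcription factor MYC, which binds the E-box, and cells that grow fast need more of their products.

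The promoters of these genes often hold that E-box, and the sites of 10 risen members are shown because the same word stands close to the start of each gene. The search used RefSeq windows of 300 bases (250 before and 50 after the annotated start, build GRCh38.p14), which were held for 49 of the 57 genes and not for NOP58, NOLC1, NOL10, RRP12, BOP1, RRS1, RRP1B and DDX18. Each line gives 24 bases, 5′ to 3′ on the strand of the gene, with the E-box CACGTG in capitals. The 10 are the members with the largest rise in shPKCi among those that hold the word.
PNO1 (chr2:68157888-68157911, plus strand): gcagctgcgCACGTGtttcagccg
UTP20 (chr12:101280086-101280109, plus strand): ttttccgtcCACGTGacccactca
NOP2 (chr12:6568242-6568265, minus strand): tccggattgCACGTGgagggccgc
LTV1 (chr6:143843357-143843380, plus strand): ctggggctgCACGTGtggtgaggc
MRTO4 (chr1:19251810-19251833, plus strand): cttccgccgCACGTGgattcagcg
NOL6 (chr9:33473897-33473920, minus strand): atttccgccCACGTGggaagctat
NAT10 (chr11:34105605-34105628, plus strand): gcgcttgcgCACGTGctgtctacc
WDR43 (chr2:28894661-28894684, plus strand): acggacgaaCACGTGgctgcagcg
UTP4 (chr16:69132624-69132647, plus strand): gcgcgcgcgCACGTGgggccgggg
RRP9 (chr3:51941895-51941918, minus strand): ttcagctgcCACGTGagttctgcg

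In these 10 windows the E-box began between 16 bases before and 36 bases after the annotated start. Over all members it was found at 22 sites in 20 promoters, 13 of them after the start and 6 in the last 100 bases before it. The site of UTP20, 10 bases before the start, closes a promoter that is shown as 1 example with the 250 bases before its start (chr12:101279855-101280104, plus strand).
UTP20 promoter: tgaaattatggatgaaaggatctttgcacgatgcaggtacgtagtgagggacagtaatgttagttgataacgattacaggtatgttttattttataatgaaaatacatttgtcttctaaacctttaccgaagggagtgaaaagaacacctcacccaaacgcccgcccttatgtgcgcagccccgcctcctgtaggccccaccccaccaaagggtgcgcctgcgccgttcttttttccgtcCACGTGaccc

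Counting 1 window a gene, 20 of the 49 member promoters (40.8%) held CACGTG, which reads the same on both strands, against 8.88% of the 14230 promoters of genes measured here and 7.43% of all 27305. With any listed window of a gene allowed, the shares were 49.0%, 10.9% and 8.77%, since 8 members had 2 windows. The member promoters and those of all measured genes had close medians of GC content, 63.7% and 63.0%, and of CpG sites, 25 and 23. The word stood in 2 of 48 promoters of ribosomal protein genes (4.17%) and in 23 of 89 promoters of other ribosome biogenesis genes (25.8%). CCGGAAG, a word of ETS factors searched on both strands, stood in 34.7% of the member promoters and in 14.6% of those of measured genes. The NRF1 motif, a palindrome, was in 8.16% and 1.79%, and TATAAA, searched on both strands, in 4.08% and 9.01%. The share of CCGGAAG was not particular to the members. It was 35.4% in promoters of ribosomal protein genes and 43.8% in those of other ribosome biogenesis genes. Each word was counted on its own, whether or not it shared bases with another. The median log2 fold change was 0.64 over the 19 measured members with the E-box CACGTG and 0.71 over the 26 without it. A match is a description of the letters, and no binding was measured.

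The targeted transcript was lower in every shPKCi array. PRKCI had log2 intensities of 10.67, 10.48 and 10.85 in shNT and of 9.64, 9.66 and 9.56 in shPKCi, a fall by 1.05 (SE 0.11, limma adjusted p = 0.000279). At a limma adjusted p under 0.05, shPKCi exceeded shNT for 1758 of the 18404 genes (9.55%) and lay under it for 1648 (8.95%), together 18.5%. With each array centred on its median, these numbers were 2170 and 1321. The array of shNT replicate 2 stood apart, with a lowest correlation to another array of 0.974 and an interquartile range of 2.81 log2 units, where the other 5 arrays had 2.98 to 3.01.

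Ribosome biogenesis factors were higher in shPKCi almost throughout. Of the 52 measured members, 44 rose (84.6%, where 9.55% of all genes did), none fell and 8 did not pass the test. In bulk RNA, more transcript per cell and more cells with the transcript cannot be told apart. The limma test without adjustment, at p under 0.05, counted 47 higher and 0 lower. The median log2 fold change of the members was 0.69, or 1.62-fold, and that of all genes was -0.02. The middle 50% of members lay between 0.53 and 0.93, so that most rises were moderate and close in size. A rise of at least 2-fold past the threshold was seen in 9 members, against 0.734% of all genes. Only FBL had a fold change below 0, at -0.01, and it was above 0 with the arrays centred on their medians. In 50 members every shPKCi array exceeded every shNT array, as in 18.0% of all genes, and in FBL and NOP10 the groups overlapped. The count of risen members was 46 with median centring, 43 after cyclic loess between arrays and 37 to 44 in the 6 fits without 1 array.

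**Figure D1:**
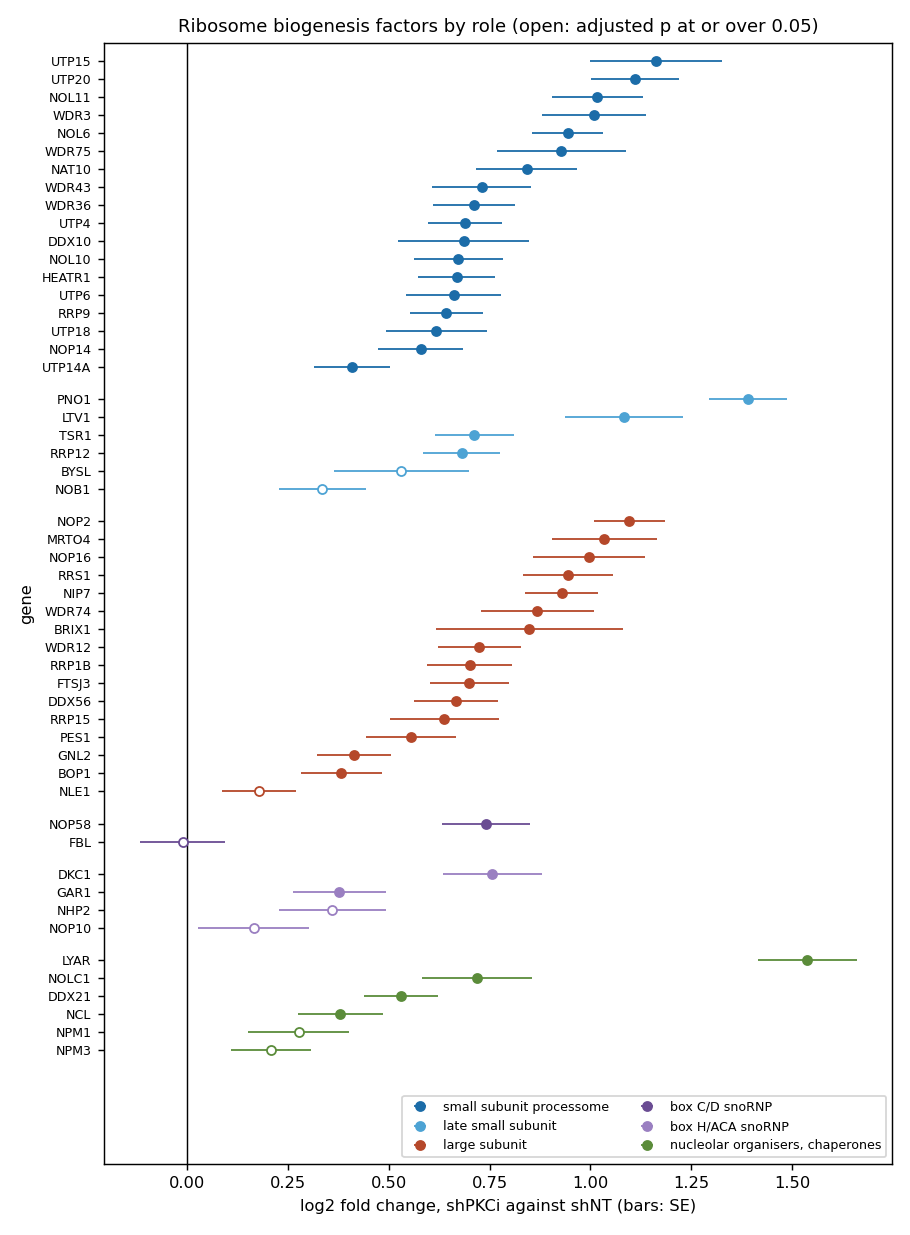
Log2 fold change of each of the 52 measured ribosome biogenesis factors in shPKCi against shNT (points; bars are the SE from limma), grouped and coloured by role, with open points for an adjusted p at or over 0.05. The points run from FBL at -0.01 to LYAR at 1.54, and all 18 small subunit processome genes are filled.

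All 18 measured genes of the small subunit processome and its partners rose, with log2 fold changes from 0.41 to 1.16 and a median of 0.70. UTP15, a subunit of the complex that binds the growing precursor and couples its synthesis to processing, had log2 intensities of 8.35, 7.73 and 8.34 in shNT and of 9.36, 9.35 and 9.20 in shPKCi. The groups were apart by more than 0.8, and shNT replicate 2 was the lowest array. Its rise was 1.16 (SE 0.16, adjusted p = 0.00116). UTP20, a very large scaffold protein of the particle, stood at 7.84, 7.65 and 7.96 in shNT and at 8.95, 8.99 and 8.84 in shPKCi. These values did not overlap, and the rise was 1.11 (SE 0.11, adjusted p = 0.000149). NOL11, a further subunit of the UTP15 complex, gave 7.63, 7.28 and 7.45 in shNT and 8.54, 8.49 and 8.38 in shPKCi. All 3 shPKCi arrays were higher, by 1.02 on average (SE 0.11, adjusted p = 0.000335).

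WDR3, a WD-repeat scaffold protein of the same particle, read 7.33, 6.91 and 7.29 in shNT and 8.30, 8.18 and 8.09 in shPKCi. Replicate 2 was again the lowest shNT array, and the rise was 1.01 (SE 0.13, adjusted p = 0.000682). NOL6, which sits in the core of the processome, had 5.98, 6.02 and 5.97 in shNT and 6.95, 6.91 and 6.94 in shPKCi, with little spread in either group. Its rise of 0.94 (SE 0.09, adjusted p = 0.00012) did not rest on replicate 2, which was the highest of its shNT arrays. WDR43 and WDR75 belong with UTP15 and UTP4 in the complex that binds the precursor early, and they rose by 0.73 and 0.93, with 0.69 for UTP4. NAT10, an acetyltransferase that modifies cytidines of the small subunit RNA, rose by 0.84, and the DEAD-box helicase gene DDX10 by 0.69. The WD-repeat gene WDR36 rose by 0.71, and HEATR1, whose large product is needed for polymerase I transcription and early processing, by 0.67.

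The remaining rises in this group were those of NOL10 (0.67), UTP6 (0.66), RRP9 (0.64), UTP18 (0.62), NOP14 (0.58) and UTP14A (0.41). RRP9 binds the U3 small nucleolar RNA that pairs with the precursor, and UTP14A activates a helicase that later removes U3. Across the 18 genes the adjusted p ran up to 0.0165. The call of DDX10 was lost without shPKCi replicate 1 (adjusted p = 0.065) and without shPKCi replicate 2 (0.0571), and that of UTP14A without the same arrays (0.0669 and 0.0557).

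Among 6 genes for late maturation of the small subunit, 4 rose. PNO1, which holds the last cleavage site of the precursor until its nuclease can act, read 7.47, 7.27 and 7.42 in shNT and 8.81, 8.77 and 8.75 in shPKCi. The 3 values of each group lay within 0.21 of each other while the groups were more than 1.2 apart. The rise of PNO1 was 2.62-fold (log2 1.39, SE 0.10, adjusted p = 2.31e-05), with the smallest adjusted p of any member. LTV1, an assembly and export factor, had 9.71, 9.21 and 9.68 in shNT and 10.65, 10.74 and 10.46 in shPKCi. Its rise was 1.08 (SE 0.15, adjusted p = 0.000937) with no overlap. TSR1, which blocks early binding of initiation factors to the immature subunit, rose by 0.71, and the export factor gene RRP12 by 0.68.

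The other two of these genes did not pass. NOB1, the nuclease that makes the last cut of the small subunit RNA, had 7.72, 7.43 and 7.71 in shNT and 7.96, 7.91 and 8.01 in shPKCi, a difference of 0.33 (SE 0.11, adjusted p = 0.06). BYSL, a nuclear assembly factor, had 6.69, 7.40 and 7.08 in shNT and 7.48, 7.54 and 7.75 in shPKCi, a difference of 0.53 (SE 0.17, adjusted p = 0.0553). Neither pair of groups overlapped. In BYSL, shNT replicate 2 was the highest of its group, and without it the value was 0.70 (adjusted p = 0.00776), against 0.35 without shNT replicate 1 (adjusted p = 0.151). Both genes passed with median centring, at adjusted p of 0.0406 for NOB1 and 0.0294 for BYSL.

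Of 16 measured genes for large subunit assembly, 15 rose, with a median log2 fold change of 0.71 for the group. NOP2, a nucleolar methyltransferase of the large subunit RNA long known as a proliferation antigen, had log2 intensities of 7.63, 7.61 and 7.64 in shNT and of 8.69, 8.76 and 8.72 in shPKCi. The spread within a group was under 0.08, and the rise was 1.10 (SE 0.09, adjusted p = 4.81e-05). MRTO4, a relative of the stalk protein P0 that holds its place during assembly, gave 7.05, 6.88 and 6.54 in shNT and 7.88, 7.83 and 7.86 in shPKCi. Here replicate 3 was the lowest shNT array, and the rise was 1.03 (SE 0.13, adjusted p = 0.00064). NOP16 had 9.19, 8.63 and 8.87 in shNT and 9.90, 9.82 and 9.96 in shPKCi, a rise of 0.997 (SE 0.14, adjusted p = 0.0011). RRS1, which helps bring the 5S particle into the large subunit, read 6.98, 6.65 and 6.95 in shNT and 7.82, 7.82 and 7.78 in shPKCi. It rose by 0.95 (SE 0.11, adjusted p = 0.000433), and in none of these genes did the groups overlap.

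PES1, BOP1 and WDR12 form the PeBoW complex, which is needed for processing of the large subunit RNA, and all 3 transcripts rose. The rises were 0.72 for WDR12 (SE 0.10), 0.55 for PES1 (SE 0.11) and 0.38 for BOP1 (SE 0.10, adjusted p = 0.0257). BOP1 was not past the threshold without shNT replicate 1 (adjusted p = 0.06), shNT replicate 3 (0.07), shPKCi replicate 2 (0.103) or shPKCi replicate 3 (0.102). The dimmer BOP1 probe set differed by 0.26 on the log2 scale (adjusted p = 0.241 over all probe sets). NIP7, a small RNA-binding factor, rose by 0.93 and WDR74, which is tied to the release of early factors, by 0.87. RRP1B and FTSJ3, the latter a methyltransferase homologue, each rose by 0.70, the helicase gene DDX56 by 0.67, RRP15 by 0.64 and the nucleolar GTPase gene GNL2 by 0.41.

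BRIX1, a factor of large subunit assembly, had the widest spread of any member, at 9.60, 8.64 and 9.58 in shNT and 10.27, 10.14 and 9.96 in shPKCi. The groups did not overlap, but replicate 2 lay almost a full log2 unit under the other shNT arrays. The rise of BRIX1 was 0.85 (SE 0.23, adjusted p = 0.0304) with all arrays and 0.53 without shNT replicate 2. BRIX1 lost its call when shPKCi replicate 1, 2 or 3 was left out (adjusted p of 0.11, 0.087 and 0.0554), and GNL2 when shPKCi replicate 2 was (0.0635). NLE1, a factor released late by a large motor ATPase, was the 1 gene of this group that did not pass, at 0.18 on the log2 scale (SE 0.09, adjusted p = 0.233).

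**Figure D2:**
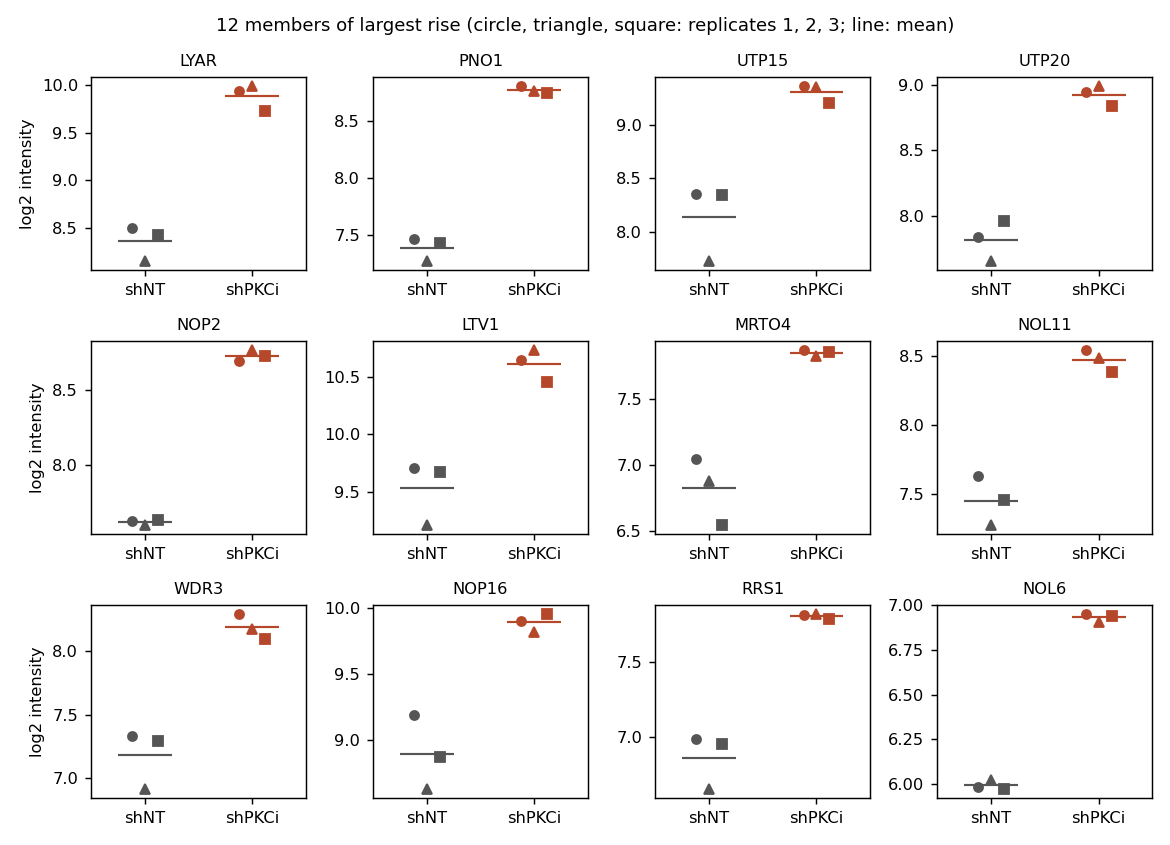
Log2 intensity of the 12 members with the largest rise, 1 panel a gene, with a point for each array (circle, triangle and square for replicates 1, 2 and 3) and a line at the group mean; each vertical axis has its own range and does not start at 0. In all 12 panels every shPKCi array lies above every shNT array, and the triangle is often the lowest shNT point.

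Of 6 measured genes for the core proteins of snoRNPs, 3 rose. In the box C/D particle, NOP58, which holds the guide RNA, had log2 intensities of 10.20, 10.02 and 10.31 in shNT and of 10.97, 10.96 and 10.81 in shPKCi. The groups did not overlap and the rise was 0.74 (SE 0.11, adjusted p = 0.00146). FBL, the methyltransferase of the same particle, read 11.36, 11.08 and 11.14 in shNT and 11.14, 11.15 and 11.25 in shPKCi. Its groups overlapped, and their means differed by -0.01 (SE 0.11, adjusted p = 0.963), with values from -0.07 to 0.07 in the fits without 1 array.

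In the box H/ACA particle, DKC1, the pseudouridine synthase, had 9.495, 9.03 and 9.27 in shNT and 10.03, 10.02 and 10.01 in shPKCi, a rise of 0.76 (SE 0.12, adjusted p = 0.00253). The shPKCi arrays lay within 0.02 of each other and above all shNT arrays. GAR1, which helps the substrate RNA turn over, rose by 0.38 (SE 0.11, adjusted p = 0.0485), close to the threshold. It was not past it in any of the 6 fits without 1 array (adjusted p from 0.0619 to 0.162). NHP2 differed by a log2 value of 0.36 (SE 0.13, adjusted p = 0.0959) and its dimmer probe set by 0.30. Without shNT replicate 2 the value of NHP2 was 0.21. NOP10 differed by 0.17 (SE 0.14, adjusted p = 0.492), with 0.03 without shNT replicate 2 and 0.31 without shNT replicate 1. NHP2 and NOP10 are small structural proteins of the particle.

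Among nucleolar chaperones and regulators, LYAR showed the largest rise of any member. LYAR, a zinc finger protein of the nucleolus that aids precursor processing, stood at 8.49, 8.14 and 8.43 in shNT and at 9.95, 9.995 and 9.73 in shPKCi. Its lowest shPKCi array was more than 1.2 above its highest shNT array, and the rise was 2.90-fold (log2 1.54, SE 0.12, adjusted p = 4.52e-05). NOLC1, a phosphoprotein that escorts snoRNPs, rose by 0.72 (SE 0.14), and DDX21, a helicase that acts on both polymerase I transcription and snoRNA release, by 0.53 (SE 0.09).

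NCL encodes nucleolin, one of the most abundant nucleolar proteins, and its log2 intensities were 12.38, 12.16 and 12.39 in shNT and 12.75, 12.73 and 12.58 in shPKCi. The groups were apart by under 0.2, and the rise was 0.38 (SE 0.11, adjusted p = 0.0328). NCL was not past the threshold after cyclic loess (adjusted p = 0.0598), nor without shNT replicate 1 (0.0571), shNT replicate 3 (0.0542), shPKCi replicate 1 (0.123) or shPKCi replicate 2 (0.126). NPM1, the histone and ribosomal protein chaperone nucleophosmin, differed by a log2 value of 0.28 (SE 0.13, adjusted p = 0.177), and its 2 other probe sets, 1 of them dim, by 0.25 and 0.24. Without shNT replicate 2 the value of NPM1 was 0.15 (adjusted p = 0.314). The related chaperone gene NPM3 differed by 0.21 (SE 0.10, adjusted p = 0.194). NPM1 also has near-identical pseudogenes whose transcripts can bind the same probes.

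The rise did not come from 1 array. Taking each member's deviation from its own mean over the 6 arrays, the median over members was -0.29, -0.46 and -0.28 in the shNT arrays and 0.39, 0.34 and 0.33 in the shPKCi arrays, each in the order of replicates 1 to 3. All shPKCi arrays lay together, and shNT replicate 2 lay lower than the other shNT arrays. Replicate 2 was the lowest shNT array in 43 of 52 members (82.7%), against 36.7% of all genes. Without it, 44 members rose and the median log2 fold change was 0.64. Of the 44 members that rose with all arrays, 37 passed in each of the 14 alternative fits, and the other 7 were GAR1, NCL, UTP14A, DDX10, BOP1, GNL2 and BRIX1.

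**Figure D3:**
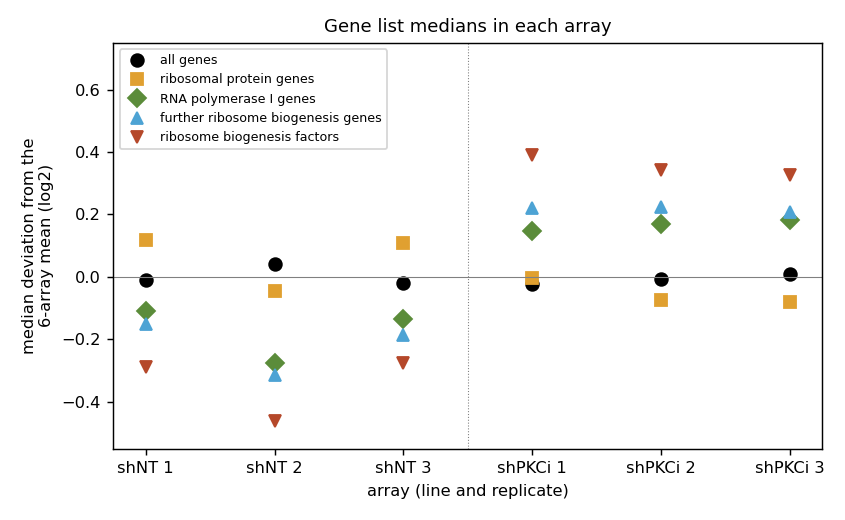
Median over the genes of a list of each gene's deviation from its mean over the 6 arrays (log2 units, vertical axis) in each array (horizontal axis), for the ribosome biogenesis factors and 4 comparison lists. The factors run from -0.46 in shNT replicate 2 to 0.39 in shPKCi replicate 1, and all genes together stay near 0.

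Other genes of the same pathway rose in 53 of 99 measured cases, where 9.55% of all genes did, and fell in 1, with a median log2 fold change of 0.46. RRP36, a processome factor, stood at 6.57, 6.05 and 6.46 in shNT and at 7.51, 7.34 and 7.37 in shPKCi, a rise of 1.04 (SE 0.14, adjusted p = 0.000846). The large subunit factor gene URB2 rose by 1.03, NOL9, a kinase of precursor RNA ends, by 0.96, the nuclease gene ISG20L2 by 0.92 and AATF by 0.91. In these 5 genes the groups did not overlap. RIOK3, an atypical kinase of late small subunit particles, fell by 0.38 (SE 0.12, adjusted p = 0.0499), and of the 6 fits without 1 array it passed only in that without shNT replicate 2 (adjusted p of 0.0903 to 0.173 in the other 5).

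Of 20 genes of RNA polymerase I and its factors, which make the RNA that the members process, 8 rose (40%) and 1 fell. The median was 0.28, and of all genes 9.55% rose and 8.95% fell. POLR1B, the second largest subunit, had log2 intensities of 7.06, 6.86 and 7.01 in shNT and of 8.21, 8.19 and 8.11 in shPKCi. Its groups were apart by more than 1, and the rise was 1.19 (SE 0.10, adjusted p = 5.29e-05). The promoter factor gene TAF1A and the small subunit gene POLR1H each rose by 0.72. POLR1D, a subunit shared with polymerase III, fell by 0.59 (SE 0.12, adjusted p = 0.0079). UBTF, which encodes the factor that opens ribosomal DNA for transcription, differed by 0.20 on the log2 scale (adjusted p = 0.229).

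Few transcripts of the ribosomal proteins that the members assemble passed the test in either direction. Of 57 such genes, 1 rose, 5 fell and 51 did not pass, and the median was -0.12. The share that fell was near the 8.95% of all genes. In 18 of the 57, however, every shPKCi array lay under every shNT array, against 17.8% of all genes, and in 3 above. At an unadjusted limma p under 0.05, 2 were higher and 12 lower. RPL28, RPL22 and RPL3 fell by 0.56, 0.55 and 0.45, and RPL29 rose by 0.48. The calls of RPL22 and RPL29 were lost without shPKCi replicate 2 (adjusted p of 0.0563 and 0.0648). The number that fell moved between 3 with median centring and 12 after cyclic loess, and with each array left out it lay between 2 and 8, the lowest without shPKCi replicate 2 and the highest without shNT replicate 2. The difference between this list and the biogenesis factors was not tested.

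The transcript of MYC was measured at 10.47, 10.64 and 10.46 in shNT and at 10.73, 10.72 and 10.80 in shPKCi. All shPKCi values exceeded all shNT values, but the log2 fold change of 0.23 (SE 0.10) did not pass (adjusted p = 0.149). MYC passed in 2 of 14 alternative fits, without shNT replicate 2 (0.28, adjusted p = 0.0423) and with array weights (0.26, adjusted p = 0.0358), and in the others the adjusted p reached 0.573, after cyclic loess. Of 12 genes of its network, 2 rose (16.7%) and 1 fell, and the median log2 fold change was -0.0001. With so few genes, these counts are near the shares of all genes, 9.55% higher and 8.95% lower. MXI1, whose product opposes MYC at E-boxes, fell by 0.96 (SE 0.09, adjusted p = 0.000149), and MXD1, another antagonist, rose by 0.67 (SE 0.16, adjusted p = 0.0193). MLX, a partner of related glucose-sensing factors, rose by 0.39 (SE 0.09, adjusted p = 0.0165). The rises of MXD1 and MLX were lost without shPKCi replicate 1 (adjusted p of 0.0767 and 0.0667) and without shPKCi replicate 2 (0.066 and 0.0793).

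**Figure D4:**
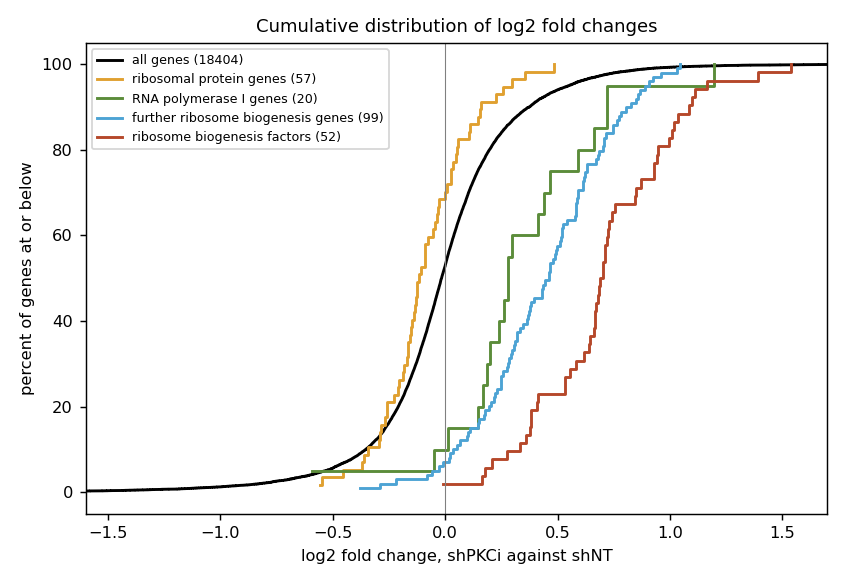
Cumulative share of genes (percent, vertical axis) at or below a log2 fold change in shPKCi against shNT (horizontal axis, shown from -1.6 to 1.7) for the ribosome biogenesis factors, 3 related lists and all genes. The curve of the factors crosses 50% at 0.69, that of further biogenesis genes at 0.46, that of RNA polymerase I genes at 0.28 and that of ribosomal protein genes at -0.12.

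Markers were read beside these results to check the label of the cells. The shares of all genes to set beside each count below were 9.55% higher and 8.95% lower. KRT5 and KRT14, keratins of basal prostate epithelium, had log2 intensities between 11.82 and 12.14 and between 10.24 and 10.68. TP63 and KRT6A were not analysed here. Of 10 measured basal markers, 1 rose and 5 fell, and their mean log2 intensity was 9.85 to 9.91 in shNT and 9.51 to 9.55 in shPKCi. Of 12 fibroblast and mesenchymal markers, none rose and 4 fell (limma; 0 higher and 6 lower at an unadjusted p under 0.05), with a mean of 6.19 to 6.31 in shNT and 5.66 to 5.72 in shPKCi. Within that list LUM and DCN were at 2.78 to 3.32 in all 6 arrays, while VIM was at 9.19 to 9.52 and FAP at 7.97 to 9.35. ACTA2 fell by 2.15, TAGLN by 1.71, FAP by 1.05 and COL1A1 by 0.49. Of 8 luminal markers none rose and 2 fell (limma; 1 and 2 at an unadjusted p under 0.05), with a mean of 6.68 to 7.01 in shNT and 6.62 to 6.70 in shPKCi. Of 11 endothelial and blood cell markers 1 rose and 1 fell, with a mean of 4.75 to 4.93 and 4.82 to 4.84. Of 8 neuroendocrine markers none rose and 1 fell (limma; 0 and 1 unadjusted), with a mean of 5.02 to 5.14 and 4.81 to 4.92. The part of these marker changes in the rise of the biogenesis factors was not tested.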

How the data were processed

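RNA of 6 PrEC cultures, 3 per line, was hybridised to 1 array each. The authors deposited intensities on a linear scale, from 3.29 to 18461, for 32321 probe sets, and RMA is named by the submitters' processing notes. For RMA's version and the genome build: not given in the sources used here. Intensities were transformed to log2. Probe sets with 1 gene symbol (19158) were kept and the one of highest mean was used per gene. Members and gene lists were chosen with earlier results of these data known, and a rule picked genes to give array by array (the 12 largest rises and the largest change in each role). NOB1, BYSL, BRIX1, FBL, NCL and MYC were given so in addition, chosen after their values were seen. RRP36 and POLR1B, the largest rises of their lists, and PRKCI, the targeted gene, were also given array by array. No member fell past the threshold.

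Lines were compared with limma 3.58.1 in R 4.3.3 (lmFit, eBayes, all 6 arrays, no covariate), with Benjamini-Hochberg adjustment over 18404 genes and a threshold of 0.05. P-values measure the spread between these cultures, and the number of arrays limits the precision. In simulated data with these 18404 genes, log2 changes of 1 were recovered in 99.6% and of 0.5 in 46.3% of cases. Far fewer genes were changed there than were called here, and the noise was normal and independent. These shares therefore need not hold for the real arrays. Alternative fits used a replicate block, 5 of the arrays, median centring, cyclic loess, signal filters, averaged probe sets, a trended robust variance and array weights. Promoters came from RefSeq tables, with the window listed at the top for each gene, and motifs were matched exactly. The RNA polymerase I list holds subunits shared with other polymerases, and ribosomal protein genes were taken by symbol without like genes.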

Additional observations from a re-analysis of the deposited data

How the results depend on the processing

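The direction and count of risen members held within 1.5 times in all 14 alternatives (37 to 46 of 52, none lower), and their median log2 fold change ran from 0.63 to 0.75. The log2 fold change of FBL, which never passed, was 0.044 with median centring, -0.068 to 0.073 with 1 array left out (0.073 without shNT replicate 1), 0.0076 without shPKCi replicate 1 and 0.0027 without shPKCi replicate 2. Further biogenesis genes that fell, 1 with all arrays, numbered 0 with the replicate block and median centring, 2 with cyclic loess, both signal filters, the trended robust variance and array weights, and 0 to 1 with 1 array left out. Ribosomal protein genes that fell, 5 with all arrays, numbered 3 with the replicate block and median centring, 12 with cyclic loess and array weights, 9 with signal above the median, 8 with the trended robust variance and 2 to 8 with 1 array left out. The 1 that rose became 0 with averaged probe sets and 0 to 1 with 1 array left out. Risen MYC network genes ranged from 0 to 3 and all genes from 997 to 1935 higher and from 1048 to 1959 lower with 1 array left out. The cause of these shifts was not tested. Deviations of same-numbered arrays from their group means correlated at 0.12, -0.06 and -0.18. Such values cannot show whether same-numbered cultures were handled together, which was not given in the sources used here. With the replicate block, 42 members rose, and GAR1, NCL and BOP1 lost their calls (adjusted p of 0.0723, 0.0627 and 0.054) while BYSL gained one (0.0341). No detection calls were used, so dim signals may be background.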

Other observations

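Within the further biogenesis genes were 13 measured genes of the RNA exosome and its cofactors, which trim and degrade precursor RNA. Their median log2 fold change was 0.35. At an unadjusted limma p under 0.05, 8 were higher and 1 was lower, EXOSC5 at -0.22. After adjustment 0 were lower and 4 rose (30.8%, where 9.55% of all genes did). These were EXOSC8 by 0.80, EXOSC3 by 0.71, EXOSC4 by 0.63 and EXOSC2 by 0.61, grouped after their values were seen. EXOSC8 lost its call without shPKCi replicate 1 or 2, and EXOSC4 without shPKCi replicate 1 or 3. Of 9 further DEAD-box and DEAH-box helicase genes of the pathway, 5 rose (55.6%, where 9.55% of all genes did). DHX33 was highest at 0.75 (SE 0.09, limma adjusted p = 0.000629), and none fell (0 lower at an unadjusted p under 0.05). These genes lie within the same comparison as the rest and are no independent evidence.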
